A study of Mus musculus with 3 samples.

Results

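Genes of the unfolded protein response and the integrated stress response were followed in 3 mRNA libraries of mouse liver, one per condition. The set held 10 genes, namely Hspa5, Hsp90b1, Pdia4, Sdf2l1, Dnajb9, Herpud1, Xbp1, Atf4, Ddit3 and Trib3. They were picked by gene symbol, and all 10 were found among the 23361 genes of each expression table.

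The study compared a sham operation with warm ischemia (WI) and with ischemia and later reperfusion (IR) in C57BL/6J mice, labelled male and 8 to 10 weeks old, which had fasted for 12 h. The sham mice had a laparotomy only and their livers were taken after 90 min. In the WI mice the vessels of the left and median lobes were occluded for 90 min, and in the IR mice the same 90 min of occlusion was followed by 120 min of reperfusion. Each group had 6 mice, no agent other than the anesthetic chloral hydrate was named, and whether a library pools RNA of several mice is not stated. Each condition has 1 library, so no difference below has a replicate check and no test over mice was possible.

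Proteins of the secretory pathway fold in the endoplasmic reticulum (ER), and hepatocytes secrete most plasma proteins. When unfolded proteins build up, the membrane sensors IRE1 (Ern1), PERK (Eif2ak3) and ATF6 (Atf6) raise chaperones, degradation factors and, through PERK, phosphorylation of the translation factor eIF2. Phosphorylated eIF2 slows general translation but lets Atf4 mRNA be translated, and since other kinases also phosphorylate eIF2, the ATF4 branch is called the integrated stress response.

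Expression was deposited as FPKM (a level normalised for transcript length and library size), each with lower and upper 95% bounds. Changes are given as differences of log2(FPKM + 1), which understates the change of low genes, over the 10792 genes that reached 1 FPKM in some library. All 10 genes passed that filter. A gene was called where the difference reached 2-fold. As a further description, it was asked whether the deposited bounds of both libraries failed to overlap. Those bounds, and the intervals of the log2 changes derived from them and given in brackets, come from the error model of the expression software. They do not measure the spread between mice.

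Some features of the libraries bear on every comparison with IR. The libraries labelled sham and WI went against the label male. Xist, the transcript of the inactive X chromosome, was at 18.9 FPKM in sham, 20.2 in WI and 1.29 in IR, and Eif2s3y of the Y chromosome was at 0, 0 and 13.2. The Y transcripts Ddx3y, Uty and Kdm5d were at 0.00849 FPKM or less in sham and WI and at 0.669 to 8.58 in IR. Sex, the added time after surgery and reperfusion therefore cannot be told apart in comparisons with IR. None of the 10 genes lies on a sex chromosome, but genes on other chromosomes can also differ by sex, and this was not tested. Of the 9 hepatocyte markers examined 8 were expressed in each library, led by Apoa1 or Ttr, while Alb was listed at 0 in all of them. Summed neutrophil marker FPKM was 25.9, 19.6 and 471 in sham, WI and IR, led by S100a8 (13.6, 9.17 and 212), with Mpo at 0.0598 or less. Summed Kupffer cell and macrophage markers were at 740, 405 and 289, sinusoidal endothelial markers, led by Clec4g (70.7, 55.9 and 41.4), at 181, 136 and 144, and plasma and B cell markers, of secretory cells rich in ER, at 14.5, 6.88 and 3.84 with Igj the highest in each. The endothelial sum was higher in IR than in WI through Lyve1 (11.2, 2.73 and 33.4 FPKM), and 5 of its 8 markers had a lower value in IR than in WI. Of 6 acinar pancreas markers 4 were at 0 in each library, and Cela1 was at 7.52, 7.55 and 14.6 FPKM. In bulk tissue fewer cells of a type and less RNA per cell cannot be told apart, and the part of these shifts in the results was not tested.

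Of the 10 genes, Xbp1, Ddit3, Atf4, Dnajb9, Hspa5 and Trib3 had their highest FPKM in IR, Sdf2l1, Pdia4 and Hsp90b1 in WI, and Herpud1 in sham. In IR against sham the first 6 of these 10 genes rose at least 2-fold and 0 fell, with 5.35% of all genes called higher and 2.15% lower. In IR against WI 4 of 10 rose and 0 fell, against 5.78% of all genes called higher and 1.43% lower. In WI against sham 1 of 10 rose and 0 fell, against 0.751% of all genes higher and 1.10% lower. The median change of the 10 genes was 0.36 in WI against sham, 0.86 in IR against WI and 1.27 in IR against sham, beside all-gene medians of 0.02, 0.03 and 0.05. By bounds 0 genes stood apart in WI against sham, where 0.195% of all genes were higher and 0.482% lower, and 0 in IR against WI, where 3.22% were higher and 0.398% lower. In IR against sham 1 gene, Xbp1, stood apart, with 2.70% of all genes higher and 1.12% lower.

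**Figure D1:**
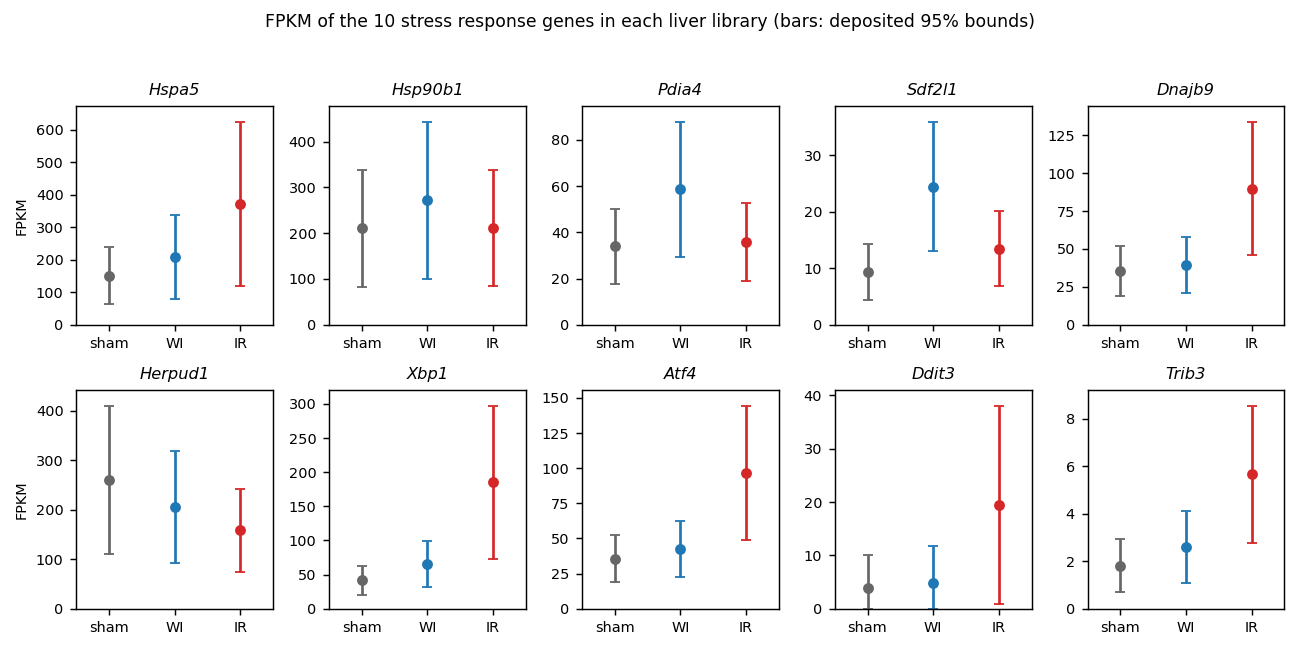
FPKM (vertical axes, linear from 0, a scale per gene) of the 10 genes in the sham, WI and IR libraries, 1 library each, with bars for the deposited 95% bounds. IR is the highest library in 6 panels (Hspa5, Dnajb9, Xbp1, Atf4, Ddit3 and Trib3), WI in 3 (Hsp90b1, Pdia4 and Sdf2l1), and Herpud1 is highest in sham.

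Chaperones and folding enzymes of the ER come first. Hspa5 encodes BiP, the ATP-driven chaperone that also holds the sensors inactive. It lies at chr2:34772090-34776529 (mm10). Its level was 151 FPKM (bounds 62.3 to 239) in sham, 209 (79.5 to 338) in WI and 372 (120 to 624) in IR. The order was sham, WI, IR, and the bounds of all 3 libraries overlapped. Hspa5 rose 2.47-fold in FPKM in IR against sham, a log2 change of 1.30 [0.01 to 2.58], and the change from WI to IR was 0.83 [-0.49 to 2.15], under the call.

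Hsp90b1 encodes GRP94, the HSP90 of the ER, at chr10:86690841-86705444. It stood at 210 FPKM (83.1 to 338) in sham, 272 (101 to 443) in WI and 211 (84.3 to 338) in IR. The sham and IR levels were nearly the same and the bounds overlapped throughout. The log2 changes were 0.37 in WI against sham, -0.37 in IR against WI and 0.00 [-1.22 to 1.23] in IR against sham.

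Both chaperone genes carry the ER stress element (ERSE, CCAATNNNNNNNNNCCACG), which ATF6 binds together with NF-Y, and they are shown because they share the element and differed in level. The 250 bases before the RefSeq start (GRCm38.p6) are printed 5′ to 3′ on the strand of the gene, with ERSE matches on either strand in capitals. Hspa5 is at chr2:34771840-34772089, plus strand, and Hsp90b1 at chr10:86705445-86705694, minus strand.
Hspa5: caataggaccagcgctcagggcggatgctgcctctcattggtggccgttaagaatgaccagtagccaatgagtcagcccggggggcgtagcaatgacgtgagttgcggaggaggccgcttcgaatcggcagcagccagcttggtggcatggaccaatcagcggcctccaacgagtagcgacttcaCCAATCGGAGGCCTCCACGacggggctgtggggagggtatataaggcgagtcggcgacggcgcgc
Hsp90b1: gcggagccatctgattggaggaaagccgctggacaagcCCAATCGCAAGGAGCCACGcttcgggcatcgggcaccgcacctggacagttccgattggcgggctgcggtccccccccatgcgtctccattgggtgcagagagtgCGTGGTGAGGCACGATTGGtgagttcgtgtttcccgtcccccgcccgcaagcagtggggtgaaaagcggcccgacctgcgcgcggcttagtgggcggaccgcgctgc

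The Hspa5 match spans bases -65 to -47 from the start. Hsp90b1 has 2 matches, at -212 to -194 and, on the opposite strand, at -107 to -89. Of 32851 RefSeq promoter windows (250 bases before to 50 after each start), 0.119% held the letters of the ERSE. The match is a description of letters and not a measured site.

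Pdia4 encodes ERp72, a protein disulfide isomerase, at chr6:47796141-47813512, a span that also holds the microRNA gene Mir704, listed at 0. It measured 33.9 FPKM (17.8 to 49.98) in sham, 58.7 (29.5 to 87.8) in WI and 35.8 (18.8 to 52.9) in IR. WI was the highest library, 1.73-fold the sham FPKM, and the IR level was close to that of sham. The log2 change was 0.77 [-0.20 to 1.74] in WI against sham and -0.70 in IR against WI, both under the call.

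Sdf2l1 encodes a small ER protein that works with the DnaJ co-chaperone Dnajb11, and lies at chr16:17130138-17132383. It was at 9.36 FPKM (4.44 to 14.3) in sham, 24.4 (13.0 to 35.9) in WI and 13.4 (6.77 to 20.1) in IR. Sdf2l1 alone of the 10 rose at least 2-fold in WI against sham, by 2.61-fold in FPKM and 1.30 [0.35 to 2.24] on the log2 scale, although the bounds of both libraries overlapped slightly. Its IR level was 0.550 of that in WI, a change of -0.82 [-1.75 to 0.11] that was not called. Its upstream 250 bases, at chr16:17132384-17132633 on the minus strand, are shown for comparison with the chaperones above; they hold no ERSE and so no capitals.
Sdf2l1: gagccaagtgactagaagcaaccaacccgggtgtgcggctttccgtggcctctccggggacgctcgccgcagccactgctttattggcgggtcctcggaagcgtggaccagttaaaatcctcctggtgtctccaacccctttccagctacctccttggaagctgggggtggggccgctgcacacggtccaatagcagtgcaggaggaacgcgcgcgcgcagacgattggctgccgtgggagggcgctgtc

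Dnajb9 encodes ERdj4, a DnaJ co-chaperone of BiP and a classical target of spliced XBP1, at chr12:44205897-44210068. It was at 35.5 FPKM (19.04 to 52.0) in sham, 39.4 (21.1 to 57.7) in WI and 89.9 (45.9 to 134) in IR. Sham and WI were alike within their bounds and IR was the high library. Dnajb9 rose 2.28-fold in IR against WI (1.17 [0.21 to 2.13] on the log2 scale) and 2.53-fold in IR against sham (1.32 [0.36 to 2.27]).

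Herpud1 encodes a membrane protein of the complex that returns misfolded proteins to the cytosol for degradation, at chr8:94386500-94395358. It was at 261 FPKM (112 to 410) in sham, 206 (92.0 to 320) in WI and 158 (73.9 to 243) in IR. It was the one gene of the 10 with its highest value in sham and its lowest in IR, with overlapping bounds. The log2 change was -0.34 in WI against sham, -0.38 in IR against WI and -0.72 [-1.84 to 0.41] in IR against sham, none of them called. Herpud1 is shown because it went the other way and holds another ER stress element, ERSE-II (ATTGGNCCACG), as well as a CARE (TGATGNAA), the composite element read by C/EBP and ATF4. The 250 bases before its RefSeq start are at chr8:94386179-94386428, plus strand, with the CARE (first, on the opposite strand) and the ERSE-II in capitals.
Herpud1: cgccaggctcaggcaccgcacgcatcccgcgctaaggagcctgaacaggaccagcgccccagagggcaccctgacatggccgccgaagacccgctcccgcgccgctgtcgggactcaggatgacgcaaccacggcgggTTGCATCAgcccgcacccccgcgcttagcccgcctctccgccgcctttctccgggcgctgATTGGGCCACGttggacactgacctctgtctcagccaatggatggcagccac

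The ERSE-II spans -52 to -42 and the CARE -112 to -105. Their letters occur in 0.0365% and 3.97% of the promoter windows. The RefSeq start of Herpud1 lies upstream of the start that the expression tables give.

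The transcription factor genes Xbp1, Atf4 and Ddit3 were each called higher in IR against sham. Xbp1 encodes the factor of the IRE1 branch, at chr11:5520641-5525993. Its level was 41.7 FPKM (20.8 to 62.7) in sham, 65.2 (31.1 to 99.2) in WI and 185 (73.5 to 297) in IR. The lower bound in IR lay above the upper bound in sham, which held for none of the other 9 genes. Xbp1 rose 4.44-fold in IR against sham, 2.12 [1.01 to 3.24] on the log2 scale, and 2.84-fold in IR against WI, 1.49 [0.35 to 2.63]. The change from sham to WI was 0.63, under the call.

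IRE1 activates Xbp1 mRNA by cutting out 26 bases, which shifts the reading frame. The stretch is shown because FPKM per gene adds up the unspliced and spliced forms, so activation cannot be read from these values. It is bases 815 to 840 of the GENCODE transcript Xbp1-001 (NCBIM37 annotation, 2129 bases), inside the coding region, given 5′ to 3′ with the excised bases in capitals and 15 bases on each side.
Xbp1-001: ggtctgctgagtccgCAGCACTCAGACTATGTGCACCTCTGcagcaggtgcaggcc

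Atf4 encodes the factor whose translation rises when eIF2 is phosphorylated, at chr15:80255184-80257541. Its mRNA was at 35.6 FPKM (19.1 to 52.1) in sham, 42.6 (22.7 to 62.4) in WI and 96.4 (48.6 to 144) in IR. Sham and WI overlapped almost wholly, and IR was higher with slight overlap. Atf4 rose 2.27-fold in IR against WI (1.16 [0.19 to 2.13]) and 2.71-fold in IR against sham (1.41 [0.45 to 2.37]).

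Ddit3 encodes CHOP, a pro-apoptotic factor induced by ATF4. It was at 3.97 FPKM (0 to 10.1) in sham, 4.81 (0 to 11.8) in WI and 19.4 (0.850 to 38.0) in IR. Its bounds were the widest relative to its level, reaching 0 in sham and WI. Ddit3 passed the 2-fold call in IR against WI, 4.04-fold and 1.81 [-0.36 to 3.99], and in IR against sham, 4.89-fold and 2.04 [-0.17 to 4.25], with both intervals spanning 0. The tables give Ddit3 the locus chr10:127290793-127311786, which it shares with Mars, a tRNA synthetase gene at 12.5, 13.1 and 18.6 FPKM, so the division of fragments between them is uncertain.

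Trib3 encodes a pseudokinase that ATF4 and CHOP induce, at chr2:152337425-152344060. It was the lowest of the 10 in every library, at 1.81 FPKM (0.695 to 2.93) in sham, 2.60 (1.10 to 4.10) in WI and 5.65 (2.77 to 8.54) in IR. The order was again sham, WI, IR. Trib3 rose by 1.24 [0.39 to 2.09] on the log2 scale in IR against sham, and its change of 0.89 [0.02 to 1.75] from WI to IR was under the call although the FPKM ratio was 2.18.

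**Figure D2:**
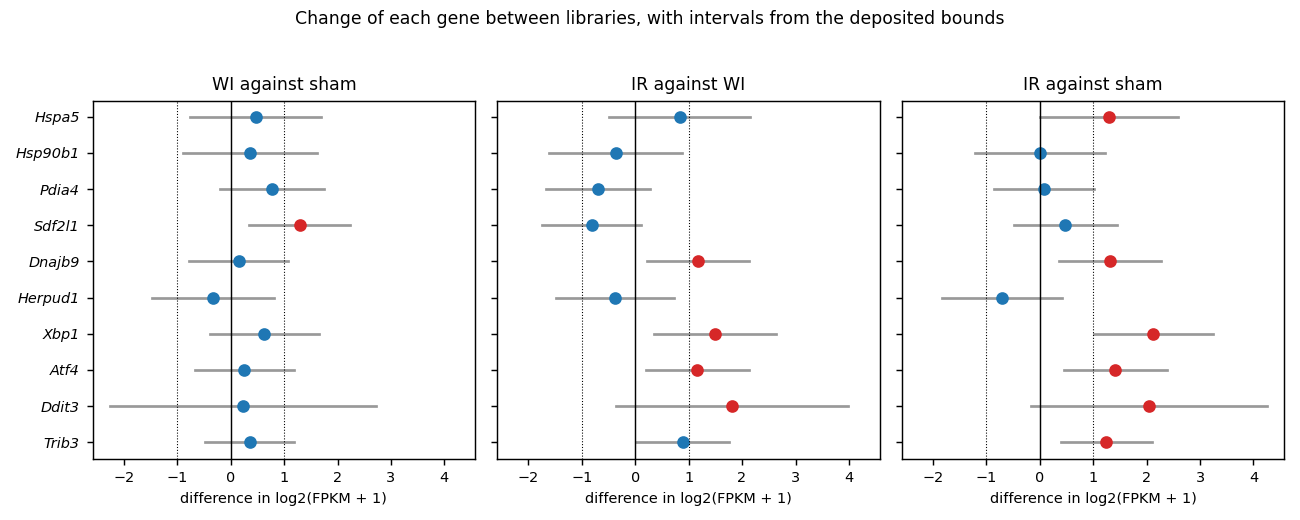
Differences in log2(FPKM + 1) of the 10 genes in WI against sham, IR against WI and IR against sham, with grey intervals from the deposited 95% bounds. Red points reach 2-fold (dotted lines at -1 and 1) and number 1, 4 and 6 in the 3 comparisons, all on the higher side, while blue points do not.

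Compared per length, the order of the 10 genes also differed between libraries. In sham Herpud1, Hsp90b1 and Hspa5 led, in WI Hsp90b1, Hspa5 and Herpud1, and in IR Hspa5, Hsp90b1 and Xbp1. Most neighbours in these orders had overlapping bounds. The exceptions were Pdia4 above Sdf2l1 in sham and Sdf2l1 above Ddit3 in WI, and in IR all neighbours overlapped. Summed over the 10 genes, FPKM was 784 in sham, 924 in WI and 1187 in IR. As a share of the summed FPKM of the library these sums were 0.165%, 0.189% and 0.167%, so on that scale WI was highest and IR was close to sham. Loci with too many fragments were set to 0, 1 gene in sham, 1 in WI and 7 in IR. The library sums therefore do not cover the same genes.

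Scaling affected the comparisons with IR. The FPKM values of a library summed to 475754 in sham, 487912 in WI and 712423 in IR. These sums leave out the loci set to 0, which were more in IR, and the effect on the TPM values was not tested. Rescaled to a common sum (TPM), the median change of all genes shifted by -0.44 in IR against WI and -0.48 in IR against sham, and the share of called genes that were higher became 27.9% instead of 80.2% and 19.5% instead of 71.3%. With TPM 2.46% of all genes were called higher and 10.1% lower in IR against sham, and 2.94% higher and 7.61% lower in IR against WI. In IR against sham 2 of the 10 were then called higher, Xbp1 (1.55) and Ddit3 (1.52), and 1 of 10, Herpud1, was called lower (-1.29), which is near the share of all genes called lower. In IR against WI Ddit3 stayed above 2-fold (1.32), and Pdia4 (-1.23) and Sdf2l1 (-1.33) were called lower. Relative to the median of all genes on the TPM scale, the 6 genes called in IR against sham stood at 1.14 (Hspa5), 1.97 (Xbp1), 1.94 (Ddit3), 1.26 (Atf4), 1.22 (Trib3) and 1.16 (Dnajb9). The median of the 10 relative to all genes was 1.15 with TPM and 1.22 with the deposited FPKM. Hsp90b1, Pdia4 and Sdf2l1 had small positive changes in IR against sham as deposited and -0.58, -0.49 and -0.06 with TPM, so no direction is given for them, and Hsp90b1 also changed sign with median-ratio scaling (-0.01).

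The other genes of the pathway were taken from 8 lists, written from general knowledge but with earlier results of these data known. Their counts are therefore a description and not an independent check. Of 116 such genes 110 passed the filter. In WI against sham 0 rose and 1 fell (0.909%), with a median of 0.09. Of all genes 0.751% were called higher and 1.10% lower there, so the 1 fall is near the all-gene share. In IR against WI 11 rose (10%) and 1 fell, with a median of 0.18, beside 5.78% of all genes higher and 1.43% lower. In IR against sham 14 rose (12.7%) and 0 fell, with a median of 0.35, beside 5.35% higher and 2.15% lower. The same all-gene shares apply to the lists below. Asns, Psat1 and Mthfd2, among these rises, passed the filter only through IR. Requiring 1 FPKM in all libraries left 8 higher and 0 lower in IR against WI and 11 and 0 in IR against sham. The share of all genes called under that filter was not computed, so these counts have no such share beside them. With TPM the counts were 8 higher and 7 lower in IR against WI, beside 2.94% of all genes higher and 7.61% lower. In IR against sham they were 6 higher and 4 lower with TPM, beside 2.46% and 10.1% of all genes.

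ER chaperones and folding enzymes other than the 5 above numbered 15. In WI against sham 0 of 15 reached 2-fold, with a median of 0.33, and 14 of 15 had a value above that of sham. Calr, encoding the lectin chaperone calreticulin, was at 147 FPKM in sham, 270 in WI and 244 in IR, with a log2 change of 0.87 in WI against sham. In IR against sham 1 of 15 rose, Manf, a secreted ER stress protein, at 13.2, 23.7 and 33.4 FPKM and a change of 1.28 (0.72 with TPM). This 1 of 15 (6.67%) is near the 5.35% of all genes called higher. The list's median was -0.07 in IR against WI and 0.43 in IR against sham, and the latter was -0.15 with TPM. Of 14 other genes of ER-associated degradation and 19 of ER translocation and transport, 0 reached 2-fold in any comparison. Their medians ran from -0.02 to 0.19 and from 0.09 to 0.35. Likewise 0 of 10 genes of ER stress cell death reached 2-fold. With TPM 2, 2 and 1 genes of these lists were called lower in IR against WI, and 1, 0 and 1 in IR against sham, of 14, 19 and 10 genes and beside 7.61% and 10.1% of all genes called lower.

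**Figure D3:**
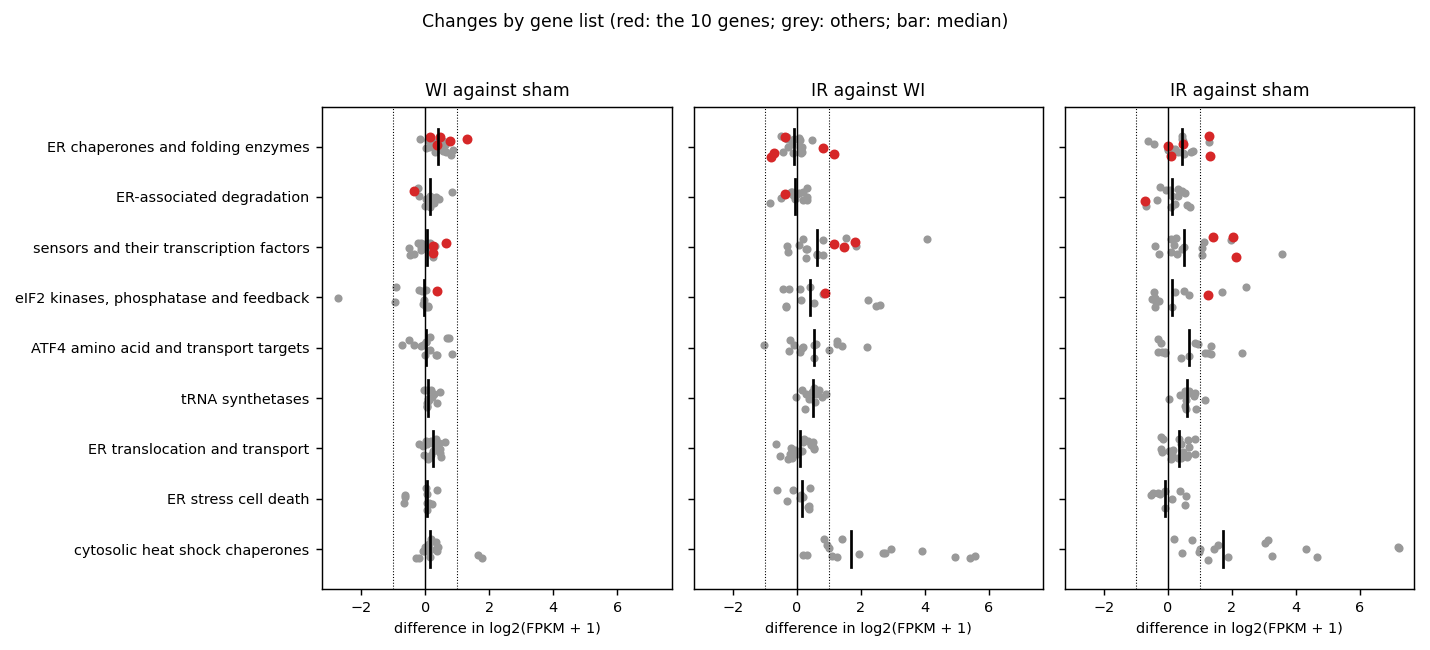
Differences in log2(FPKM + 1) of single genes (points) in each list for the 3 comparisons, with the 10 genes in red, other genes in grey and a black bar at the median of the list, red points included. In comparisons with IR the cytosolic heat shock list lies farthest to the right. Outside that list, points past the dotted 2-fold lines are mostly in the lists of transcription factors, eIF2 feedback and ATF4 targets.

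Of the 3 sensors 1 was called in any comparison. Ern1 was at 4.87, 5.46 and 6.87 FPKM in sham, WI and IR, and Atf6 at 11.9, 9.97 and 12.8, neither called. Eif2ak3 was at 2.77, 3.49 and 6.86 FPKM and rose by 1.06 in IR against sham. Among 14 sensors and factors other than Xbp1, Atf4 and Ddit3, 3 rose in IR against WI and 5 in IR against sham. Of all genes 5.78% and 5.35% were called higher in these comparisons. Atf3, a stress-induced repressor and activator, was at 8.72 FPKM in sham, 5.76 in WI and 114 in IR, a change of 3.56 in IR against sham with bounds apart. Creb3l2, an ER-anchored factor, was at 2.28, 2.54 and 11.8 FPKM and rose by 1.96, also with bounds apart. Cebpb, a partner of CHOP, rose by 1.07 (158, 113 and 334 FPKM) and Atf5 by 1.13 (54.2, 67.8 and 119 FPKM). With TPM the changes of Eif2ak3, Cebpb and Atf5 in IR against sham were 0.58, 0.49 and 0.55, under the call, and those of Atf3 and Creb3l2 were 3.01 and 1.48.

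Of 12 genes of eIF2 kinases, phosphatase and feedback other than Trib3, 0 rose and 1 fell in WI against sham (median -0.05). In IR against WI 3 rose (median 0.27), and in IR against sham 2 rose, with a median of -0.08 and 6 of 12 genes below their sham value. Of all genes 1.10% were called lower in WI against sham, 5.78% higher in IR against WI and 5.35% higher in IR against sham. Ppp1r15a encodes GADD34, the stress-induced subunit that directs dephosphorylation of eIF2, and was at 7.98 FPKM in sham, 7.76 in WI and 47.4 in IR. It rose by 2.47 in IR against WI and 2.43 in IR against sham with bounds apart, while its constitutive counterpart Ppp1r15b was at 22.3, 21.2 and 16.6 FPKM. Chac1, a glutathione-degrading enzyme, was at 6.00, 2.67 and 21.3 FPKM and rose by 2.60 in IR against WI. Ddit4, an inhibitor of mTORC1, had another course, with 26.9 FPKM in sham, 3.21 in WI and 18.8 in IR. It fell by 2.72 in WI against sham and rose by 2.23 in IR against WI, both with bounds apart. With TPM Ppp1r15a and Chac1 were at 1.88 and 1.14 in IR against sham and Ddit4 was called lower there (-1.05), beside 10.1% of all genes called lower. In WI against sham 2 of the 12 genes were called lower with TPM, beside 1.31% of all genes.

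ATF4 targets for amino acid supply and transport numbered 20, of which 15 passed the filter. In IR against WI 5 rose and 1 fell (median 0.53), beside 5.78% of all genes higher and 1.43% lower. In IR against sham 5 rose (median 0.64), beside 5.35% of all genes higher, and 6 of 15 genes were below their sham value. Asns, Psat1 and Mthfd2 passed the filter only through IR and Vldlr only through WI, so the filter itself bears on these counts and medians. Asns, asparagine synthetase, was at 0.0649, 0.176 and 4.34 FPKM in sham, WI and IR and rose by 2.33 in IR against sham. Psat1 of serine synthesis (0.396, 0.322 and 2.51 FPKM) rose by 1.33 and Mthfd2 of the mitochondrial folate cycle (0.372, 0.385 and 2.29 FPKM) by 1.26. These 3 genes had bounds apart and were low in every library. Slc3a2, the heavy chain of amino acid transporters, rose by 1.14 (15.7, 14.3 and 35.8 FPKM), Cbs of transsulfuration by 1.35 (67.3, 119 and 173 FPKM), and Gdf15, a secreted stress cytokine, by 1.002 in IR against WI (29.1, 22.4 and 45.9 FPKM). Vldlr, a lipoprotein receptor, was the gene that fell, by 1.03 in IR against WI (0.723, 1.85 and 0.399 FPKM). With TPM Asns and Psat1 were still called in IR against sham (2.03 and 1.02), and Mthfd2, Slc3a2 and Cbs were at 0.96, 0.58 and 0.77. The call of Gdf15 was lost with TPM (0.47) and with median-ratio scaling (0.996). With TPM 2 genes of the list rose in each comparison with IR, and the median in IR against sham was 0.07, or 0.50 relative to all genes.

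Of 12 tRNA synthetases named as ATF4 targets, 1 rose in IR against sham, Yars (5.56, 6.63 and 13.5 FPKM, a change of 1.14). This 1 of 12 (8.33%) stands beside 5.35% of all genes called higher. The list's median was 0.59 and 12 of 12 genes had a higher value in IR than in sham. With TPM the median was 0.05 and 0 were called, while relative to all genes it was 0.47.

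**Figure D4:**
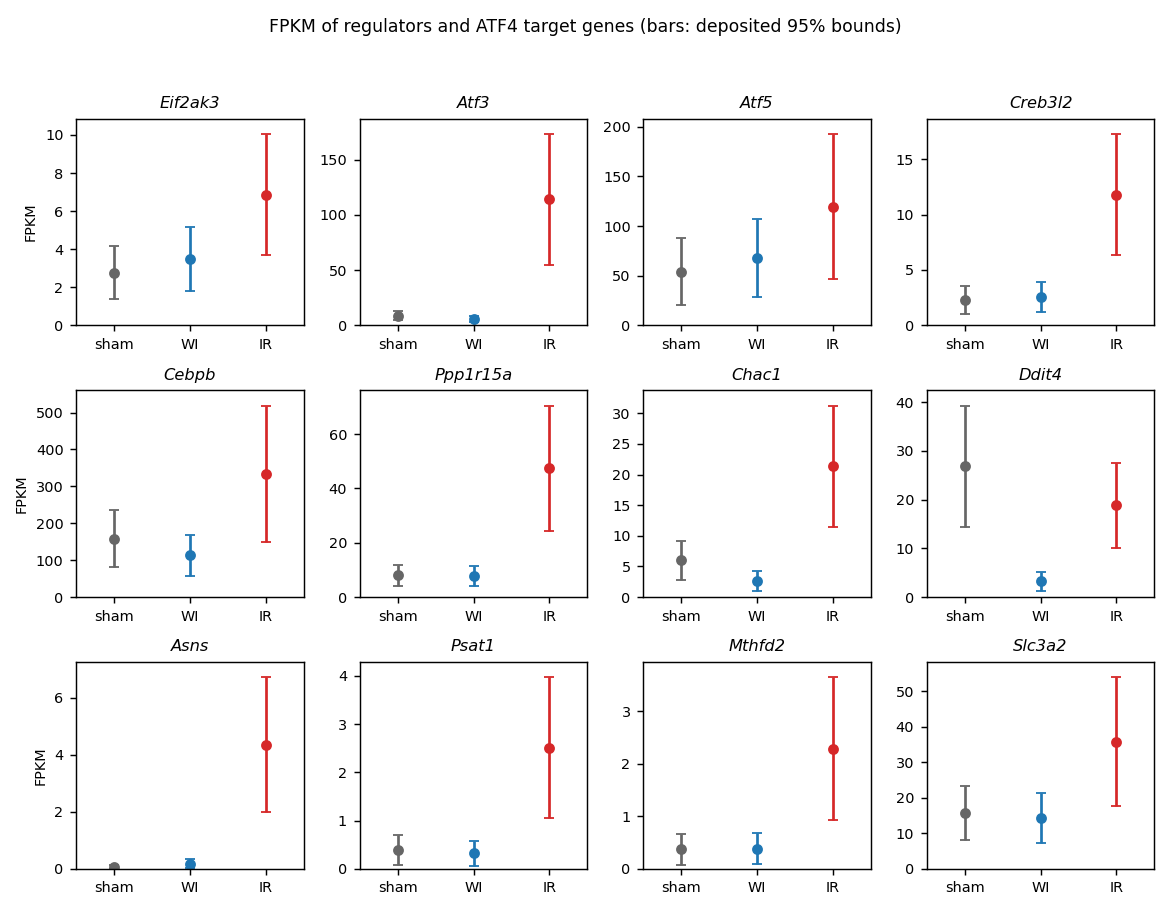
FPKM (linear axes from 0, a scale per gene) of 12 regulators and ATF4 target genes in the 3 libraries, with bars for the deposited 95% bounds. All 12 were picked from the genes called at 2-fold in some comparison, and uncalled genes of the same lists are not shown. The number of panels with IR highest therefore follows in part from that choice. In 11 panels IR is the highest library, and in the panel of Ddit4 sham is highest, at 26.9 FPKM, and WI lowest, at 3.21.

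As a cytosolic counterpart, 16 heat shock chaperone genes were examined, also listed with earlier results of these data known. In IR against sham 11 of 16 rose (median 1.72), in IR against WI 12 (median 1.69) and in WI against sham 2 (median 0.15). Of all genes 5.35%, 5.78% and 0.751% were called higher in these comparisons. With TPM 8 rose in each comparison with IR, beside 2.46% of all genes in IR against sham and 2.94% in IR against WI. The 2 genes called in WI were the near-identical copies Hspa1a (0.425, 3.89 and 206 FPKM) and Hspa1b (1.99, 8.36 and 442 FPKM), between which fragments can be divided wrongly. Their changes in IR against sham were 7.18 and 7.21, beside 1.30 for Hspa5, the HSP70 of the ER. Hsp90aa1, a cytosolic HSP90, was at 28.2, 36.7 and 256 FPKM, a change of 3.14, beside 0.00 for Hsp90b1 of the ER.

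Matches to the letters of stress elements were mapped around the start of all 10 genes, each of which had 1 window in the RefSeq table. The ERSE was found in 2 of 10 windows and the ERSE-II in 1. The UPRE (TGACGTGG), a site for spliced XBP1 and ATF6, was in 0 of 10 windows and in 0.676% of all windows. The CARE was in 2 windows, that of Herpud1 and that of Trib3, at 14 to 21 bases after the start. Parts of the ERSE were common, with CCACG in 7 of 10 windows against 32.8% of all and CCAAT in 8 of 10 against 37.4%, and these counts include the letters inside ERSE and ERSE-II. Of the 3 genes with an ERSE or ERSE-II, Hspa5 was called higher in IR against sham and Hsp90b1 and Herpud1 were not. Xbp1, called higher in IR against sham, had none of the elements searched in its window. No match says only that these letters are not in the window.

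**Figure D5:**
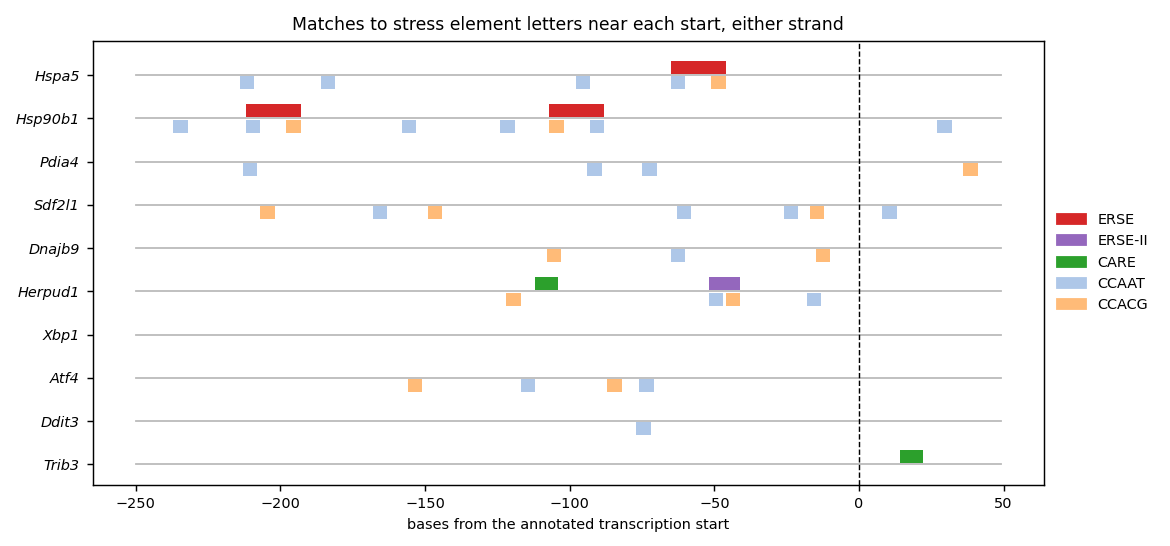
Positions (horizontal axis, bases from the RefSeq start, dashed line) of matches on either strand in the windows of the 10 genes, with ERSE, ERSE-II and CARE above each line and CCAAT and CCACG below it. Hsp90b1 has 2 ERSE and Hspa5 has 1, Herpud1 has the ERSE-II, and the line of Xbp1 is empty.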

How the data were processed

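The authors mapped RNA-seq reads to mm10 with TopHat2 2.0.9 and deposited, for each gene and library, the FPKM computed with Cufflinks 2.0.2 (Cuffdiff), its lower and upper 95% bounds and a status. The status was OK for all 10 genes. No counts per gene were given, so the number of fragments behind a value is unknown. The paper reports similar numbers of clean read pairs for the 3 libraries and a lower share of uniquely aligned pairs in IR. The bounds imply a median CV of 26.5% per library. Loci with too many fragments are set to 0 by Cuffdiff (1 gene in sham, 1 in WI, 7 in IR), which applied to Alb.

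From the FPKM values log2(FPKM + 1) was computed, and 3 pairwise comparisons were made over genes with at least 1 FPKM in at least 1 library. A gene was called at 2-fold or, separately, where bounds did not overlap. Intervals of log2 changes add the upper half-widths of both libraries in quadrature. No test was run, since each condition has 1 library. Groups follow the labels. The members and gene lists were chosen with earlier results of these data known. Named genes are the 10 members, each gene of the lists at 2-fold in any comparison (at most the 10 largest rises and falls), Ern1, Eif2ak3, Atf6, Hspa1a and Hspa1b. Atf5, Gdf15, Calr, Ppp1r15b, Mars and Hsp90aa1 lie outside this rule and were named after their values were seen. Starts in the tables count from 0 and are given counted from 1. Promoter sequences are those of RefSeq (GRCm38.p6) and the Xbp1 transcript that of GENCODE on NCBIM37, used for its letters only. Alternatives were pseudocounts of 0.1 and none, other filters, TPM and median-ratio scaling, and folds of 1.5 and 4. The tools were pandas 2.3.3 with numpy 2.4.6 and scipy 1.17.1 in Python 3.11.15, and matplotlib 3.10.9 for plots. The calling steps were tested on simulated data with 4-fold changes in well expressed genes and less noise than the deposited bounds imply. That test checks the code only and does not bear on calls near 2-fold or at low FPKM.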

Additional observations from a re-analysis of the deposited data

How the results depend on the processing

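Of the counts of called genes, 56 alternatives stayed within 1.5 times the reported value and 16 did not. The tally compares totals and ignores direction. All 10 genes passed every filter tried, so the filter settings could not change their counts. A stricter bound could not raise a count of 0. Part of the 56 was therefore fixed beforehand. With TPM in IR against WI, the 10 genes went from 4 higher and 0 lower to 1 and 2, counted as within. So were the other pathway genes, from 11 higher and 1 lower to 8 and 7. In IR against sham these went from 14 and 0 to 6 and 4, also counted as within. For the 10 stress response genes, a 1.5-fold call gave 3 genes in WI against sham and 8 in IR against WI (6 higher and 2 lower), and a 4-fold call gave 0 and 0, and 2 in IR against sham. TPM gave 3 in IR against sham (2 higher and 1 lower). The count of genes with bounds apart in IR against sham became 0 with TPM and 0 where the lower bound had to exceed the other upper bound 1.5 times. For the other pathway genes in WI against sham, a pseudocount of 0.1 gave 7 calls, no pseudocount 8 and a 1.5-fold call 16. TPM gave 2 there, 0 higher and 2 lower, beside 0.722% of all genes higher and 1.31% lower. A 1.5-fold call gave 25 in IR against WI and 34 in IR against sham, and a 4-fold call 5 and 3. The fold settings move the counts by their own construction, and for the others the cause was not tested. The share of all genes called was not computed for the other folds, pseudocounts and filters. Counts at those settings therefore cannot be set against an all-gene share. Among the log2 changes of the 10 genes, pseudocounts changed 0 of 30 signs, TPM 3 and median-ratio scaling 1, all in changes under 2-fold.

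No paired analysis was possible because each condition has 1 library, and for the same reason no replicate was left out and no batch was examined. Sex-linked transcripts, time after surgery and reperfusion differ together between IR and the other libraries. The bounds are wide for Ddit3, whose locus is shared, and without counts per gene the number of fragments behind a value is unknown.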
